A study of Mus musculus with 24 samples.

Results

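Among the 12 spleens of leukemic mice that received no vincristine, the 4 with most RNA of maturing red blood cells were set beside the 4 with least. The spleens were chosen by a readout: an erythroid score, the mean rlog of Gata1, Klf1 and Tfrc. The rlog is a log2 scale that the authors computed from gene counts, so that a difference of 1 is a doubling. Of 12 spleens without vincristine and 24 in the series, 8 entered the split, and 4 lay between the sets. The score was 12.29, 11.19, 10.92 and 10.33 in the high-score spleens CTRL 32, FMD 11, FMD 9 and CTRL 25 (CTRL, fed ad libitum; FMD, on a fasting-mimicking diet), against 8.49, 8.32, 8.04 and 7.87 in the low-score spleens CTRL 33, CTRL 3, FMD 8 and FMD 34. Values of single spleens follow this order throughout. The spleens just outside the sets were CTRL 6 with 9.37, below the high-score set, and CTRL 2 with 8.88, above the low-score set. The sets differed by 3.00 on the log2 scale, which is 8.01-fold, and each held 2 spleens of ad libitum fed mice and 2 of mice given the diet. Because the score chose the spleens, every difference between the sets is a description without a test.

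All 24 mice were male C57BL/6J, 20 weeks old, and carried B-ALL from 10000 injected GFP-expressing BCR-ABL leukemia cells of the same strain. FMD mice received 4 cycles of a fasting-mimicking diet, each of 3 days, with vehicle, and CTRL mice were fed ad libitum with vehicle. FMD+VC mice received the diet with vincristine at 0.5 mg/kg, and VC mice were fed ad libitum with vincristine. Spleen RNA depleted of ribosomal RNA was sequenced at the end of treatment, with 6 mice in each group and 1 library per mouse. The share of leukemia cells in each spleen is not in the labels. In whole tissue fewer cells of a type and less RNA per cell cannot be told apart.

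The depth of the libraries is unknown, since the deposited values are not counts. The median rlog of the genes tested ran only from 7.73 to 7.86 over the 24 libraries. The single gene Gm26917 took 9.73 to 30.4% of the summed expression, and neither set stood at one end of that range, with 9.73 to 30.4% in the high-score spleens and 12.6 to 25.6% in the low-score spleens. Xist, the RNA that silences an X chromosome in female cells, was found in every library of these mice labelled male, and so were the Y-linked Ddx3y, Uty and Eif2s3y.

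**Figure D1:**
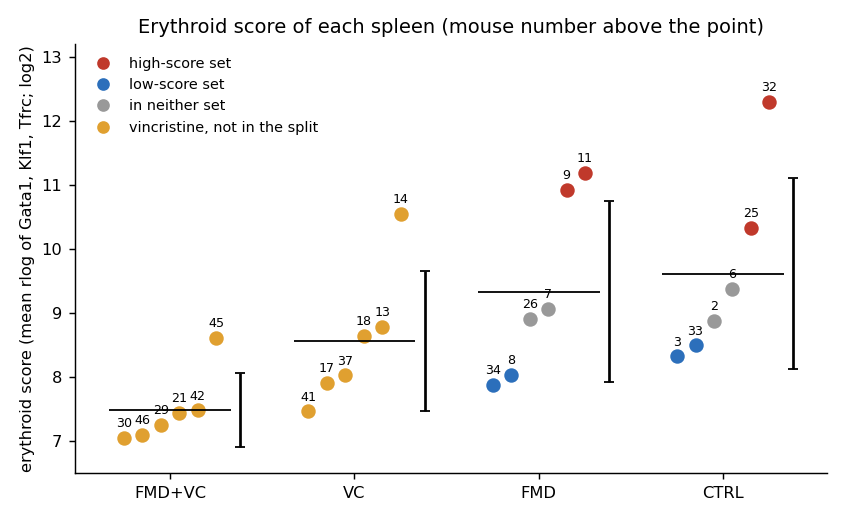
Erythroid score of each of the 24 spleens by group, in rlog units (log2), with the mouse number above each point, the group mean as a line and its SD as a bar beside it. The high-score spleens lie between 10.33 and 12.29 and the low-score spleens between 7.87 and 8.49, and both sets hold mice of the CTRL and FMD groups.

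Red cells are made in waves. GATA1 and KLF1 are transcription factors that switch on the erythroid program, erythropoietin keeps the dividing precursors alive through its receptor, and the transferrin receptor TFRC brings in the iron for heme. The maturing cell then fills with globin, builds a membrane skeleton of spectrin and ankyrin under the anion exchanger SLC4A1, and clears its organelles. In adult mice the spleen remains a site of red cell formation and expands it when the marrow falls short, as in anemia or when the marrow is displaced.

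These promoters belong to the score or to genes that stood far apart between the sets, and they are shown because GATA1 is one of the genes of the score. Each runs from 250 bases before to 50 bases after the start of transcription in RefSeq, 5′ to 3′ on the strand of the gene (GRCm38.p6), and the capitals mark a GATA word. Klf1 lies on the plus strand (chr8:84901732-84902031), Gata1 on the minus strand (chrX:7967861-7968160), Epor on the minus strand (chr9:21963527-21963826), Alas2 on the plus strand (chrX:150547167-150547466) and Hba-a1 on the plus strand (chr11:32283422-32283721).
Klf1: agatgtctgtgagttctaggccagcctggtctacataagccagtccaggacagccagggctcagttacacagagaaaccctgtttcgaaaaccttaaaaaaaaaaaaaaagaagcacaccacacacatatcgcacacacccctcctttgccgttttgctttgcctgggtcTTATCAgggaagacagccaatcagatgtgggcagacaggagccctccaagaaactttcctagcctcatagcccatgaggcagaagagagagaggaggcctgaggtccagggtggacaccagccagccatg
Gata1: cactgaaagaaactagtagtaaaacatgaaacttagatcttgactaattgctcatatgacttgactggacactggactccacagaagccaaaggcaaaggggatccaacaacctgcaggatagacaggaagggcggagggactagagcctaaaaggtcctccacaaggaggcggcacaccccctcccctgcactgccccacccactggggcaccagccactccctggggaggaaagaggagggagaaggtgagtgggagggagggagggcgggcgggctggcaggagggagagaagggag
Epor: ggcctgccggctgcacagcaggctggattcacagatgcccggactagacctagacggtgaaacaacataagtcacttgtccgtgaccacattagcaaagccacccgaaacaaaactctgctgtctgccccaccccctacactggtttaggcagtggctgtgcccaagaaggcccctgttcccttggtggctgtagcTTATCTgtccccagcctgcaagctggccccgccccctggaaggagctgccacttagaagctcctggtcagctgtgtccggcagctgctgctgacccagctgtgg
Alas2: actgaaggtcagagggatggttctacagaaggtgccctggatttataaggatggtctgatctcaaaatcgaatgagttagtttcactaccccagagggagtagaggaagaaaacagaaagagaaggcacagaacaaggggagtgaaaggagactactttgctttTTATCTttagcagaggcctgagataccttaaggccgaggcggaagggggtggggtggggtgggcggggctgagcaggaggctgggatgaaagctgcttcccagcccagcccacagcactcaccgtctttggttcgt
Hba-a1: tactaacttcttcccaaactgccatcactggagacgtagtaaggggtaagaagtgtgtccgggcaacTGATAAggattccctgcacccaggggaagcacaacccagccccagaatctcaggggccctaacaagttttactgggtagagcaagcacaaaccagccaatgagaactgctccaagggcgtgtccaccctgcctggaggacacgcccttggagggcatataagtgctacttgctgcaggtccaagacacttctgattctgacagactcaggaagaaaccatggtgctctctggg
The word searched was AGATAA or AGATAG or TGATAA or TGATAG on either strand. It begins 80 bases before the start in Klf1, 54 in Epor, 86 in Alas2 and 183 in Hba-a1, and these letters are not in the window of Gata1. Of the 86 genes higher by 3 or more in the high-score spleens, 59 had a promoter in the table, and 35 of these (59.3%) held a GATA word. The share was 28.1% of 384 genes higher by 1 or more, 26.4% of 148 lower genes, 22.8% of 10757 genes tested and 29.8% of all 32851 promoters. A KLF-type word (CCACACCC or CCGCACCC or CCACGCCC or CCGCGCCC, either strand) was held by 28.8% of the 59 genes. The share was 24.9% of the genes tested and 13.9% of all promoters. For both motifs a gene counted where any of its promoters held a word, whereas the share of all promoters counts each promoter singly. No word of either motif contains a word of the other, the shares carry no test, and a match is not a bound site.

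Erythroid genes led the difference between the sets. Of 16554 genes tested, the score genes left out, 546 (3.3%) were higher by 1 or more without overlap of the 4 high-score and 4 low-score spleens, and 267 (1.61%) were lower. The median difference of all genes was 0.00, and the largest difference upward was 5.18 where the largest downward among named genes was -2.41. The erythroid genes, on 9 lists by role, numbered 131 as listed, and 126 passed the minimum. Leaving out the 3 genes of the score, 77 of 123 were higher and 1 was lower, with a median difference of 1.86. Split within CTRL mice alone, 2 spleens against 2, 84 of the 123 were higher, beside 838 of all 16554 genes. Within FMD mice alone the counts were 74 and 557. With 6 spleens against 6, 18 of the 123 and 82 of all genes were higher without overlap, and the 123 had a median difference of 1.23. Leaving out any 1 of the 8 spleens left 71 to 78 of the 123, beside 412 to 687 of all genes. All these splits rank the same spleens by the same score, so they are no separate support.

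**Figure D2:**
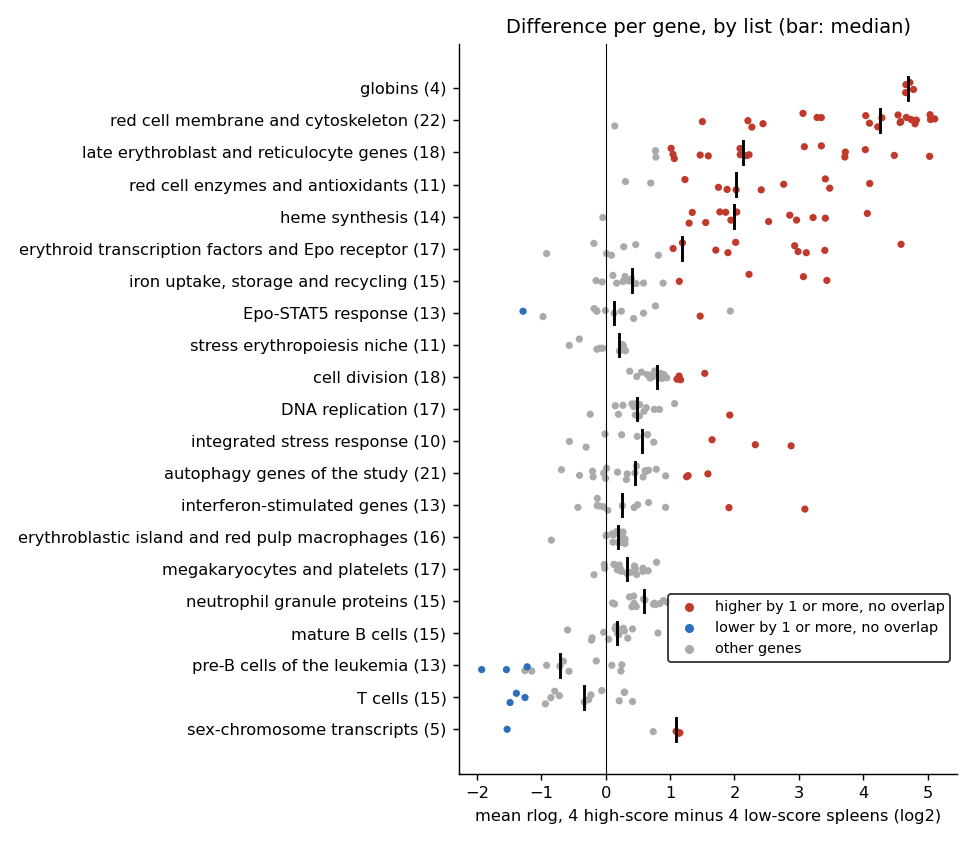
Difference in mean rlog (log2) between the 4 high-score and the 4 low-score spleens for each gene of the lists shown, with the number of genes in parentheses, the median as a bar and colors for genes that differ by 1 or more without overlap. The globins (median 4.69) and the red cell membrane (median 4.26) lie farthest to the right, and the medians of the other cell types shown lie between -0.71 (pre-B cells) and 0.59 (neutrophils).

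Globins, the oxygen carriers of red cells, were all higher. Hba-a1 was at 13.84, 11.61, 11.41 and 13.47 in the high-score spleens and at 8.82, 7.86, 7.63 and 7.12 in the low-score spleens. Hbb-bt, an adult beta globin, was at 15.33, 13.29, 12.86 and 14.30, against 10.10, 9.32, 8.82 and 8.41. In both genes CTRL 32 and CTRL 25 were the highest, above both FMD spleens of the high-score set, although CTRL 25 had the lowest score there. All 4 adult globins measured lay between 4.66 and 4.78 above the low-score mean, a fold of 25.2 to 27.5. Reads of Hba-a1 and Hba-a2, and of Hbb-bs and Hbb-bt, can be split uncertainly between near-identical copies, so the values of the single copies are less sure than that of the pair. The embryonic globins Hbb-bh1, Hbb-y and Hba-x were below the minimum.

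The red cell membrane and its skeleton held the largest number of strongly different genes, 21 of 22. Slc4a1, the anion exchanger band 3 (chr11:102348824-102366203), was at 15.37, 14.25, 13.97 and 14.38 in the high-score spleens and at 10.65, 9.65, 9.01 and 8.52 in the low-score spleens, a 32.8-fold difference. Within the low-score set it followed the order of the score, with CTRL 33 highest and FMD 34 lowest. The ankyrin that ties band 3 to the skeleton, Ank1, differed by 5.04, and the beta spectrin Sptb by 4.04. Rhag and Rhd, of the Rh complex, differed by 4.74 and 4.58, and the blood group gene Kel by 4.80. Only the glucose transporter Slc2a1 did not differ by 1 or more, with 8.57, 9.09, 9.20 and 9.81 against 8.85, 9.18, 9.01 and 9.06. Its sets overlap, and CTRL 25 was the highest of the 8 spleens.

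In heme synthesis 13 of 14 genes were higher, with a median of 1.99. Alas2, the erythroid form of the first enzyme, was at 13.13, 11.14, 11.05 and 11.96 in the high-score spleens and at 8.36, 7.63, 7.68 and 7.36 in the low-score spleens. Alas1, the form that other tissues use for the same step, was at 8.85, 8.87, 8.83 and 9.38, against 8.89, 9.08, 9.00 and 9.13. The erythroid form differed by 4.06 and the housekeeping form by -0.04. Later steps of the pathway differed by less than Alas2: Fech, which inserts the iron, by 3.22, Cpox by 2.96, Alad by 2.86, Urod by 2.04, Ppox by 1.94 and Uros by 1.86. Mitochondrial transporters of the pathway, Abcb10 and Slc25a38, differed by 2.53 and 1.55.

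**Figure D3:**
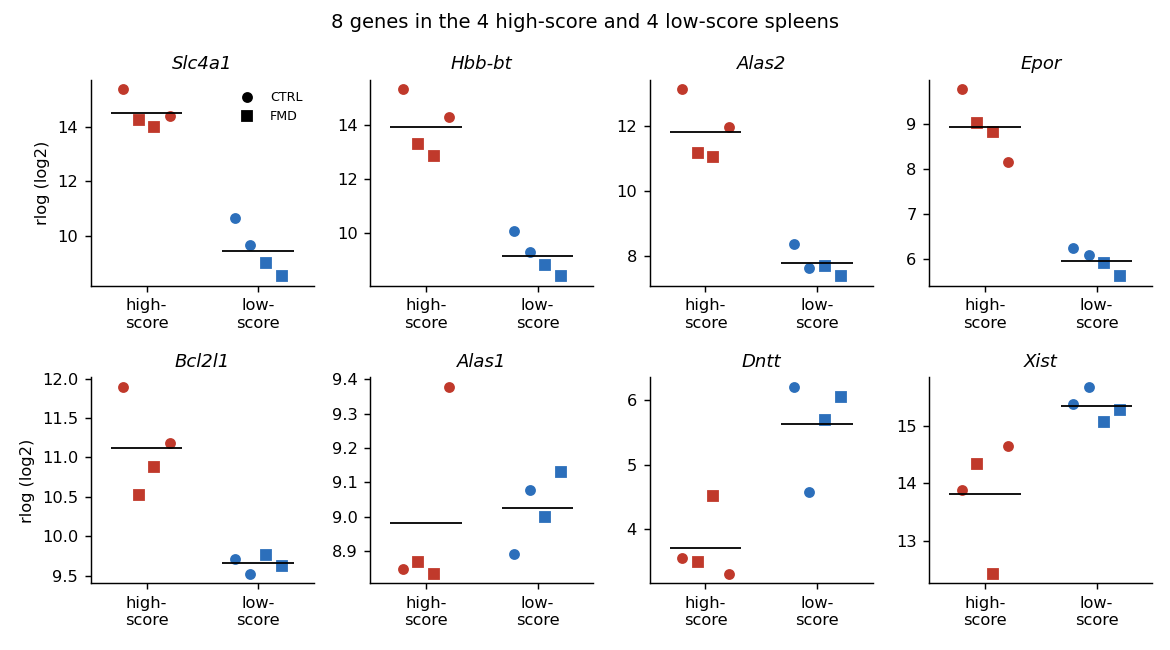
The rlog (log2) of 8 genes in each high-score spleen (red, left) and low-score spleen (blue, right), circles for CTRL and squares for FMD mice, with the mean of each set as a line and a separate vertical axis for each gene. Slc4a1, Hbb-bt, Alas2, Epor and Bcl2l1 do not overlap between the sets and are higher in the high-score spleens, Alas1 overlaps, and Dntt and Xist are lower in the high-score spleens.

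Among 17 transcription factors and receptors outside the score, 10 were higher, with a median of 1.19. Sox6, a regulator of late erythroid maturation, was at 11.94, 10.34, 10.17 and 10.44 in the high-score spleens, against 6.64, 6.14, 6.24 and 5.52 in the low-score spleens. Epor, the erythropoietin receptor, was at 9.78, 9.03, 8.82 and 8.15, against 6.24, 6.07, 5.91 and 5.61. Both separate the sets widely, and Epor follows the score in every one of the 8 spleens. Tal1 and Gfi1b, which work with GATA1, differed by 3.40 and 3.12, E2f2, a cell cycle factor of erythroblasts, by 2.93, and the GATA1 cofactor Zfpm1 by 1.90. Lmo2, Foxo3 and E2f4 were also higher, whereas Ldb1 differed by 0.09, Lyl1 by 0.28 and Cbfa2t3 by -0.18. Myb, a factor of immature progenitors, was at 10.56, 10.55, 9.60 and 10.42 in the high-score spleens and at 11.57, 10.97, 11.07 and 11.17 in the low-score spleens. Its difference of -0.92 had no overlap but stayed under 1, and Gata2, the GATA factor of early progenitors, differed by 0.82.

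The iron genes were mixed, with 4 of 15 higher and a median of 0.40. Besides Erfe, the genes counted as higher were Tfr2, the second transferrin receptor, by 3.07, the mitochondrial iron importer Slc25a37 by 2.23 and the endosomal iron exporter Slc11a2 by 1.14. The ferrireductase Steap3 and the ferritin receptor Ncoa4, both also used by erythroblasts, differed by 0.47 and 0.36 with overlap. Erfe, an erythroblast hormone that lowers hepcidin (listed under its older symbol Fam132b), was at 10.53, 9.43, 8.36 and 8.45 in the high-score spleens and at 5.94, 5.86, 5.56 and 5.69 in the low-score spleens, a 10.8-fold difference. The genes by which macrophages recycle iron were close between the sets, Slc40a1 (ferroportin) with a difference of 0.27 and Hmox1 with 0.30. The ferritins Fth1 and Ftl1 differed by 0.89 and 0.59.

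Most enzymes and late genes were higher too. Of 11 enzymes and antioxidants 9 were higher, among them the carbonic anhydrase Car2 by 3.48, the red cell pyruvate kinase Pklr by 3.41 and Bpgm, which sets the oxygen affinity of hemoglobin, by 2.42. Of 18 late erythroblast and reticulocyte genes 16 were higher, led by Trim10 with 5.03 and Tspo2 with 4.48. Trim58, a ubiquitin ligase of enucleation, differed by 3.35 and Ube2o, which clears ribosomal proteins in reticulocytes, by 2.23. Bnip3l, needed to clear mitochondria, was at 11.65, 10.53, 10.57 and 11.33, against 10.18, 10.28, 10.25 and 10.28, without overlap but with a difference of 0.77.

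Targets and sensors around erythropoietin showed no common direction. Of 13 genes of the erythropoietin and STAT5 response, 1 was higher and 1 lower, with a median of 0.13. Bcl2l1, which keeps late erythroblasts alive, was at 11.90, 10.53, 10.89 and 11.18 in the high-score spleens and at 9.71, 9.52, 9.76 and 9.63 in the low-score spleens. Socs2, a feedback inhibitor of cytokine signals, was at 10.35, 10.36, 9.28 and 11.41, against 11.80, 11.61, 11.57 and 11.54. Cish, another STAT5 target, differed by 0.13. None of 11 genes of the stress erythropoiesis niche differed by 1 or more, and Bmp4 and Kitl, signals that expand splenic progenitors, differed by 0.26 and 0.31.

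On and off the lists, the most different of the higher genes included Apol11b (5.18), Ankrd36 (5.09), Ank1, Slc4a1, Trim10, Btnl10 (5.01), Kel, Hbb-bt, Apol8 (4.74), Rhag, Hba-a1, Add2 (4.67) and Hba-a2. The apolipoprotein L genes Apol11b and Apol8 and the butyrophilin-like Btnl10 were on no list. Ankrd36 was at 6.44 to 9.29 in the high-score spleens and at 2.33 to 2.52 in the low-score spleens, a range where the rlog draws values together.

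Listed genes of other cell types had smaller medians. The median difference was 0.19 for 16 macrophage genes, 0.33 for 17 megakaryocyte genes, 0.59 for 15 neutrophil granule genes and 0.18 for 15 mature B cell genes, and none of these genes was counted in either direction. The mature B cell median was -0.19 without FMD 9, and -0.28 within CTRL mice against 0.66 within FMD mice. The neutrophil median was 0.94 without FMD 9, 0.30 without CTRL 33, 1.07 within CTRL mice and 0.09 within FMD mice. The mean of the neutrophil list ran from 6.13 to 7.79 in the high-score spleens and from 5.89 to 7.17 in the low-score spleens, so the sets overlapped. Of 18 cell division genes 4 were higher, with a median of 0.80. Mki67, made by dividing cells, was at 15.86, 14.62, 14.09 and 14.39, against 13.26, 13.00, 13.24 and 13.30. In DNA replication, the ribonucleotide reductase subunit Rrm2 differed by 1.93 and alone of 17 genes was counted.

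Few listed genes were lower in the high-score spleens. Among 13 pre-B markers 3 were lower and none higher, with a median of -0.71. The mean of this list ran from 7.30 to 8.10 in the high-score spleens and from 8.06 to 8.67 in the low-score spleens. Dntt, the polymerase that adds bases at antigen receptor joints, was at 3.54, 3.48, 4.50 and 3.30 in the high-score spleens and at 6.21, 4.57, 5.69 and 6.05 in the low-score spleens. Rag1, which cuts those joints, was at 3.79, 4.74, 4.29 and 3.91, against 6.11, 5.97, 5.37 and 5.43. Rag2 was below the minimum. Of 15 T cell genes Tcf7, Bcl11b and Themis were lower, with differences of -1.25, -1.39 and -1.48, and none was higher. The median of the 15 was -0.33, with 4 above 0, and it ran from -0.60 to -0.11 with 1 spleen left out. The mast cell protease Cpa3 was lower, with 6.59, 6.84, 5.22 and 5.92 against 8.13, 7.75, 8.00 and 8.16. It was the only 1 counted of 4 mast cell and basophil genes tested, of which 2 had a difference above 0 (list median -0.40). The defining mast cell genes Fcer1a, Ms4a2 and Tpsb2 were below the minimum. The 15 most different of the lower genes were Rprm (-2.41), Hecw1 (-2.40), Arpp21 (-2.37), Rnase10 (-2.37), Pax7 (-2.26), Slc15a1 (-2.08), Crisp1 (-2.07), Ncam2 (-2.07), Lmo7 (-2.06), Slc5a9 (-2.02), Mrgpra1 (-1.95), Nrxn3 (-1.95), Dntt, Gldc (-1.90) and Cpa3 (-1.87). Several of these are near the floor in the high-score spleens. Slc15a1 and Slc5a9 averaged 3.09 and 3.03 there, under the minimum of 3.32 that was set on the mean of all spleens. Hecw1, Rnase10 and Dntt averaged 3.79, 3.66 and 3.71 there, a range where the rlog draws values together. The part of any other cell type in the erythroid differences was not tested.

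Sex-linked RNA moved with the split. Xist was at 13.88, 14.33, 12.43 and 14.66 in the high-score spleens, against 15.39, 15.68, 15.07 and 15.28 in the low-score spleens, a difference of -1.53. The Y-linked Ddx3y went the other way, with 10.59, 10.12, 10.36 and 10.12 against 8.93, 9.31, 9.20 and 9.20. Neither gene overlapped between the sets, and Uty and Eif2s3y were higher by 1.10 and 1.15. Of the 5 sex-linked genes tested, only the Y-linked Kdm5d was not counted, with a difference above 0. Reads of Xist and its antisense partner Tsix, itself below the minimum, may not have been told apart. The part of these genes in the other differences was not tested.

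Autophagy genes were read because the study asks about autophagy. Of 21 autophagy genes 3 were higher and none lower, with a median of 0.46. Wipi1, which binds the growing autophagosome, was at 9.04, 8.20, 8.12 and 7.91 in the high-score spleens and at 6.68, 6.92, 6.64 and 6.67 in the low-score spleens. The LC3 protease gene Atg4d differed by 1.26 and Scoc by 1.28. Ulk1, the kinase that starts autophagy and that reticulocytes also use to clear organelles, was at 10.61, 9.68, 10.06 and 10.45, against 9.68, 9.33, 9.35 and 9.30. FMD 11 and CTRL 33 met at the same rounded value, and the difference of Ulk1 was 0.79. Atg9b differed by -0.69. Of 10 genes of the integrated stress response, Ppp1r15a, Asns and the heme-regulated kinase gene Eif2ak1 were higher, by 2.88, 2.32 and 1.65.

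Interferon-stimulated genes gave 2 of 13 higher, and CTRL 25 was the highest of the 8 spleens in them. The mean of this list was 9.59 in CTRL 25, against 7.02 to 7.71 in the other high-score spleens. Rsad2 was at 11.65, 9.59, 10.73 and 12.55 in the high-score spleens and at 8.15, 7.94, 8.27 and 7.79 in the low-score spleens, so that it was higher without CTRL 25 too. Isg15 was at 7.98, 6.47, 7.69 and 10.04, against 5.79, 5.87, 6.46 and 6.40, where FMD 11 lay just above the low-score spleens.

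The 12 vincristine-treated spleens took no part in the choice, and they allow a test. Each gene was fitted on the score with limma, with a separate mean for FMD+VC and VC mice, so that a slope is the log2 change per unit of score within these groups. Of 16554 genes 819 (4.95%) increased and 927 (5.6%) decreased with the score (Benjamini-Hochberg adjusted p under the threshold of 0.05). The median slope of all genes was 0.00. Among the 123 erythroid genes 74 increased and none decreased. Of 543 higher genes of the split with a name of their own, 336 (61.9%) increased and 1 decreased, and of the 86 higher by 3 or more, 82 increased.

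Read by role, the erythroid slopes differed in number. All 4 globins increased, as did 20 of 22 membrane genes, 12 of 14 heme genes, 10 of 11 enzymes, 15 of 18 late genes and 8 of 17 factors. Increases were fewer among the iron genes (4 of 15), the erythropoietin and STAT5 response (1 of 13, median slope 0.04) and the stress niche (1 of 11, median slope 0.03), and no gene of these lists decreased. Slc4a1 had a slope of 1.79 ± 0.21 (SE, adjusted p = 0.000244), Rhag of 1.80 ± 0.12 (adjusted p = 3.8e-06) and Alas2 of 1.46 ± 0.25 (adjusted p = 0.00398). Tal1 had a slope of 1.16 ± 0.05 and Epor of 0.94 ± 0.07, and both passed the test, with an adjusted p of 1.04e-07 and 8.46e-06 from limma. For Alas1 the slope was 0.01 ± 0.05 and for Slc2a1 -0.13 ± 0.05, which did not pass. Lmo2, Foxo3 and E2f4, higher in the high-score spleens, had slopes of 0.05, 0.15 and 0.13 that did not pass, and Erfe missed with a slope of 0.48 and an adjusted p of 0.0514.

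**Figure D4:**
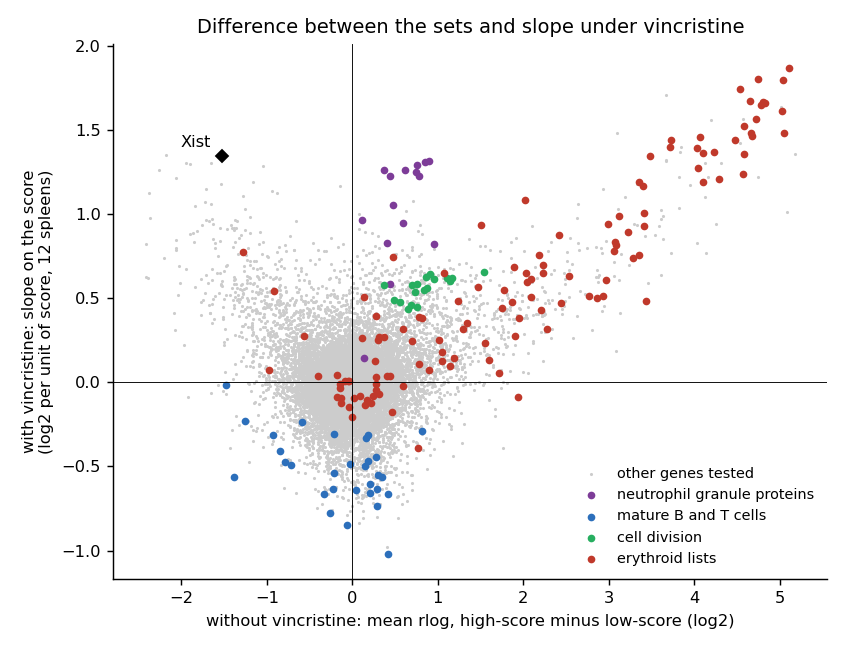
Each gene by its difference in mean rlog between the high-score and low-score spleens without vincristine (horizontal axis, log2) and its slope on the score in the 12 vincristine-treated spleens (vertical axis, log2 per unit of score), with listed genes in color. Erythroid genes run to the upper right, with Slc4a1 at 5.04 and 1.79, whereas Xist lies at -1.53 and 1.35.

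Genes outside the erythroid lists also had slopes, and whether these differed from the split was not tested. In vincristine-treated spleens 11 of 15 neutrophil granule genes and 17 of 18 cell division genes increased with the score, and 13 of 15 mature B cell and 8 of 15 T cell genes decreased. Of 13 pre-B genes 3 decreased and 0 increased, but their median slope was 0.49, where their median in the split was -0.71. The pre-B list mean was 9.01, 8.44 and 8.70 in VC 13, VC 14 and VC 37 and 9.04 in FMD+VC 45. It was 7.73 to 7.92 in the other treated spleens. The part of leukemia RNA in these slopes was not tested. Of the 267 genes lower in the high-score spleens, 31 (11.6%) increased and none decreased, and the 15 most different had a median slope of 0.84. Arpp21, Ncam2, Gldc and Cpa3 increased, with slopes of 1.13, 0.84, 0.88 and 0.88. Xist, lower in the high-score spleens, had a slope of 1.35 ± 0.42 under vincristine (adjusted p = 0.0572). When the level of Xist entered the fit, 66 of the 123 erythroid genes still increased, and no gene of the neutrophil, cell division, mature B or T cell lists passed, out of 303 that increased and 13 that decreased.

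A single spleen weighed on these fits. VC 14 had the highest score of the treated mice, 10.55, and without it 190 genes increased and 12 decreased, of which 32 erythroid genes increased and none decreased. Without VC 14 no globin passed, 12 of 22 membrane and 2 of 14 heme genes passed, no neutrophil, cell division or mature B cell gene passed, and 1 T cell gene decreased. Of 180 named genes past the threshold 139 no longer passed, and the slope of Gldc became -0.00407. The counts of increased and decreased genes were 519 and 530 without VC 17, 1997 and 1879 without VC 37, 313 and 140 without VC 41, 543 and 525 without FMD+VC 29, 467 and 356 without FMD+VC 45, and 539 and 494 without FMD+VC 46, and 610 decreased without FMD+VC 21. Among VC mice alone 83 genes increased and none decreased. No gene had a slope that differed between FMD+VC and VC mice by limma (1172 with an unadjusted p under 0.05, smallest adjusted p = 0.0783).

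**Figure D5:**
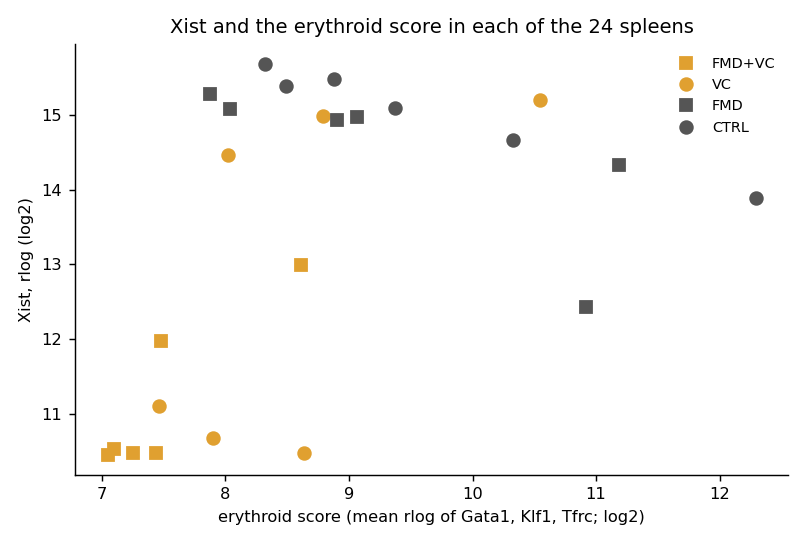
Xist (rlog, log2) against the erythroid score (rlog, log2) in each of the 24 spleens, with squares for mice on the diet, circles for mice fed ad libitum, and orange for vincristine. Xist lies between 12.43 and 15.68 in the 12 spleens without vincristine, lowest in FMD 9, and between 10.45 and 15.20 in the vincristine-treated spleens.

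Whether the labelled treatments changed the score was tested with exact two-sided permutation tests over 924 relabellings, adjusted over 4 comparisons. FMD+VC spleens scored 7.49 ± 0.58 and FMD spleens 9.33 ± 1.42 (SD, n = 6 each), a difference of -1.84 (exact permutation p = 0.0108, adjusted p = 0.0433). Against VC spleens, which scored 8.56 ± 1.09, the difference of FMD+VC was -1.07 (exact p = 0.039, adjusted p = 0.0779). VC spleens differed from CTRL spleens, which scored 9.61 ± 1.50, by -1.05 (exact p = 0.193, adjusted p = 0.257), and FMD from CTRL by -0.28 (exact p = 0.745, adjusted p = 0.745). The adjusted p of the first of these lay between 0.026 and 0.121 when each mouse was left out in turn. Leaving out FMD 7, 9, 11 or 26 or FMD+VC 21, 29, 30, 42 or 46 put it above 0.05. The difference itself then stayed between -2.14 and -1.47, with an exact permutation p of 0.00649 to 0.0303 over 462 relabellings. The second passed without VC 41 (adjusted p = 0.0346) or FMD+VC 45 (adjusted p = 0.026). With a second score, from Epor, Alas2, Slc4a1 and Hemgn, the first did not pass (difference -1.80, exact permutation p = 0.0584, adjusted p = 0.234). Of the score genes, Tfrc was at 10.85 to 12.01 in FMD+VC spleens and at 12.39 to 14.15 in FMD spleens, without overlap. Gata1 and Klf1 overlapped between these groups. The part of Tfrc in this difference was not tested.

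The diet alone gave no gene past the threshold: of 16557 genes 0 (0%) were higher and 0 (0%) lower in FMD than in CTRL spleens by limma, with 707 at an unadjusted p under 0.05. The 126 erythroid genes had a median difference of -0.23, and 2 of them had an unadjusted p under 0.05.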

How the data were processed

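The authors sequenced spleen RNA with 50-base single-end reads, mapped it to GRCm38 with HISAT2 2.1.0, counted genes with HTSeq 0.6.1 and deposited log2 values made with the rlog of DESeq2. Whether counting used the strand was not stated in what was read here. The rlog draws genes with few reads toward their mean, so that folds of such genes are understated. No counts were used here, so depth is unknown and precision comes from the spread between mice.

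Of 46078 rows, 13174 were 0 throughout, and 16557 reached a minimum of 3.32 on average (a count of 10 in rlog units). In the split, a gene was counted as higher or lower when the means of the 4 against 4 spleens differed by 1 or more and no values overlapped. Slopes and labelled groups were fitted with limma 3.58.1 in R 4.3.3 (moderated test, variance trend), with Benjamini-Hochberg adjustment over all genes. Scores were compared with exact permutation tests (Python 3.11.15, numpy 2.4.6). The scripts were tested on simulated data.

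Members, lists and tests were chosen with earlier results of these data known. Named are the members of the erythroid lists, the 15 largest differences in each direction (no antigen receptor segments or predicted genes), up to 4 members of each other list, the autophagy genes of the study and sex-linked genes. Of the tested genes 21 have a date as name and 123 a shared name, and these are not named. Some listed genes were counted but are not reported here by name. Gene positions are from GENCODE M21 (GRCm38). Other settings were the numbers of spleens per set, diet alone, a second score, quantile normalization, other minimums, array weights, Xist as a covariate and each spleen left out. P-values set a slope or a difference against the spread between mice.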

Additional observations from a re-analysis of the deposited data

Results flagged for a closer look

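The score and the mean rlog of each list were checked in each group and set. Dixon's gap test compared the highest or lowest spleen with the rest. Of 210 groups, 22 held a spleen that stood apart, where chance gives about 1 in 20 if checks are independent. These checks were not. The high-score and low-score sets were chosen by the score and share spleens with the CTRL and FMD groups. The erythroid lists also vary together with the score. The count of 22 therefore cannot be weighed against that rate, and the spleens below are a description. FMD+VC 45 stood above the other FMD+VC spleens in the erythroid score (8.61, against 7.05 to 7.48), and in the list means of erythroid factors (9.17), red cell membrane (8.75), late erythroblast genes (8.98), pre-B cells (9.04, against 7.73 to 7.82), cell division (9.65), DNA replication (9.72) and the integrated stress response (8.68). VC 14 was the highest VC spleen in heme synthesis (10.20, against 8.38 to 9.02) and in the autophagy genes (8.52).

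CTRL 32 was the highest of the high-score spleens in the red cell membrane (12.21, against 10.71 to 10.95), the lowest of them in cytotoxic cells (5.75), and the highest CTRL spleen in DNA replication (11.30, against 9.80 to 10.16). FMD 11 was the highest FMD spleen in DNA replication (10.68), and FMD 34 the lowest low-score spleen in red cell enzymes (8.61, against 8.88 to 8.89). FMD 9 was the highest FMD spleen in mature B cells (11.29, against 10.18 to 10.45) and in abundant non-coding RNAs (16.08). FMD 7 was the highest FMD spleen in dendritic cells (8.41) and monocytes (7.79), and FMD 8 in adipocyte genes (8.50, against 6.52 to 7.13). In stroma and endothelium, CTRL 33 was the lowest CTRL spleen (9.43) and VC 18 the highest VC spleen (10.89).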

How the results depend on the processing

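Depth is unknown, the sets are small, and 1 spleen (VC 14) carries much of the slope fit. With 6 spleens against 6, a stricter demand for no overlap, 82 genes were higher and 17 lower. Within CTRL mice, 2 against 2, there were 838 and 419, 161 genes were lower at a minimum count of 50, and without a minimum difference there were 1677 and 1595. Leaving out 1 spleen gave 412 to 687 higher and 232 to 381 lower genes. Of the list medians that were 1 or more, none changed sign under any setting run. With 6 against 6 the globins had a median of 3.55 and the membrane genes of 2.98. The macrophage median was -0.20 with 3 spleens against 3, where it was 0.19 with 4 against 4, and the mature B cell median ran from -0.28 to 0.66 over settings and from -0.19 to 0.44 with 1 spleen left out.

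The count of genes that increased and decreased with the score was 83 and 0 in VC mice alone, 307 and 15 with the second score (Epor, Alas2, Slc4a1 and Hemgn), 303 and 13 with Xist as a covariate and 1715 and 1754 with array weights, and 451 decreased without a minimum. In turn without each spleen, 190 to 1997 increased and 12 to 1879 decreased. Of 180 named genes past the threshold, 148 no longer passed in VC mice alone, 139 without VC 14, 102 with Xist and 99 with the second score. In FMD+VC mice alone the slopes of Gldc (-0.23) and Ppox (-0.0293) changed sign, and that of Gldc did without VC 14, with -0.00407 to 1.16 over all spleens left out. The cause of these changes was not tested.

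With the second score, FMD+VC differed from FMD by -1.80 (adjusted p = 0.234, exact permutation). Leaving out 1 mouse, this difference of scores lay between -2.14 and -1.47, FMD+VC against VC between -1.30 and -0.67, VC against CTRL between -1.45 and -0.52, and FMD against CTRL between -0.65 and 0.25. The last turned to 0.25 without CTRL 32 and to 0.0083 without FMD 34. No paired analysis was possible because the mouse numbers differ between the groups.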

Other observations

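The antibody joining chain Jchain, made by plasma cells, was lower in the high-score spleens with a difference of -1.24, and of 8 plasma cell genes it was the only one counted. Mycn, a factor of immature cells, differed by -1.17 among 11 stem and progenitor genes. On the erythropoietin and STAT5 list, Podxl, a surface protein that erythropoietin induces, was at 11.13, 10.49, 9.22 and 8.01 in the high-score spleens and at 7.31, 7.68, 8.32 and 7.80 in the low-score spleens, so that the sets overlapped at CTRL 25 despite a difference of 1.94. The elastase gene Cela1 differed by 1.32, while the other exocrine pancreas genes listed were below the minimum. The 14 mitochondrially encoded transcripts had a median difference of 0.22 and the 12 genes of stroma and endothelium of 0.08, with no gene counted in either list.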
